A study of Mus musculus with 16 samples.

Results

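Fetal livers of mouse embryos that carry the GATA1s allele were compared between embryonic days 14.5 (E14.5) and 12.5 (E12.5) on 8 of the 16 arrays of the series, 4 at each stage. The 8 arrays were taken by their titles, WT/GATA1s or ERG/GATA1s. The tissue was mouse fetal liver made into a cell suspension, and RNA was read on an expression array whose signal is given on the log2 scale, so that 1 unit is a 2-fold change. The series asks which genes respond to ERG and to the forms of GATA1 in fetal liver. Here the question is what changes with stage when the short form of GATA1 is present.

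WT/GATA1s embryos carried the GATA1s knock-in allele and no ERG transgene, and ERG/GATA1s embryos carried both. Each genotype had 2 arrays at each stage, 1 labelled female and 1 labelled male. All 8 carried GATA1s, so a change shared by both genotypes was a change with stage in carriers. The other 8 arrays, WT and ERG at the same stages, had no GATA1s and served as the background for the differences given later. Their spread also entered the tests within each carrier genotype and between the 2. Their signals entered the choice of probe sets and of genes tested. Gata1 lies on the X chromosome, and whether the females held 1 or 2 copies of the allele, and what drives the transgene, are not stated in the labels. Nothing in the labels tells single embryos from pools. The p-values therefore measure the spread between these samples, which may be technical, and the small number of arrays limits the precision.

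GATA1 drives the development of red cells, platelets, eosinophils and mast cells as a transcription factor. GATA1s lacks the start of the protein and still binds DNA. In this window the fetal liver grows as a blood-forming organ while its hepatoblasts begin to make plasma proteins and metabolic enzymes, resident macrophages accumulate, and primitive red cells that hold embryonic globins are outnumbered by definitive ones. In RNA from a whole cell suspension, fewer cells of a type and less RNA per cell cannot be told apart.

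Sex markers moved with stage on these arrays. Xist, the RNA that coats the inactive X chromosome, had signals of 10.02, 9.83, 10.08 and 9.51 at E12.5, in the order WT/GATA1s labelled female, WT/GATA1s labelled male, ERG/GATA1s labelled female and ERG/GATA1s labelled male, which is kept below. At E14.5 it was 10.53, 3.97, 4.22 and 4.19. The mean of 3 genes of the Y chromosome, Uty, Kdm5d and Eif2s3y, was 3.60, 3.77, 3.91 and 3.92 for the E12.5 arrays. For the E14.5 arrays it was 3.06, 6.27, 6.5 and 6.38. All 4 E12.5 arrays therefore lay on the female side, and at E14.5 only the WT/GATA1s array labelled female did. The markers opposed the label on 3 arrays: both E12.5 arrays labelled male and, at E14.5, the ERG/GATA1s array labelled female. Among the arrays without GATA1s, 2 of those labelled male held both kinds of signal, with Xist at 9.35 and a Y-linked mean of 4.95 in WT at E12.5, and 10.03 and 5.27 in ERG at E14.5. ERG labelled male at E12.5 lay between, at 5.73 and 5.61. Stage, sex and copies of the X-linked allele cannot be fully told apart here. Counts are therefore also given without those 3 arrays, and with the 5 female-side arrays alone (4 at E12.5 against 1 at E14.5, whose own spread is assumed to be like the others'). With genotype as a block, the ERG/GATA1s arrays of the female side have no E14.5 partner and add only to the estimate of spread. A female-side change is therefore that of 1 E14.5 WT/GATA1s array against the 2 of WT/GATA1s at E12.5. It does not tell sex from genotype.

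**Figure D1:**
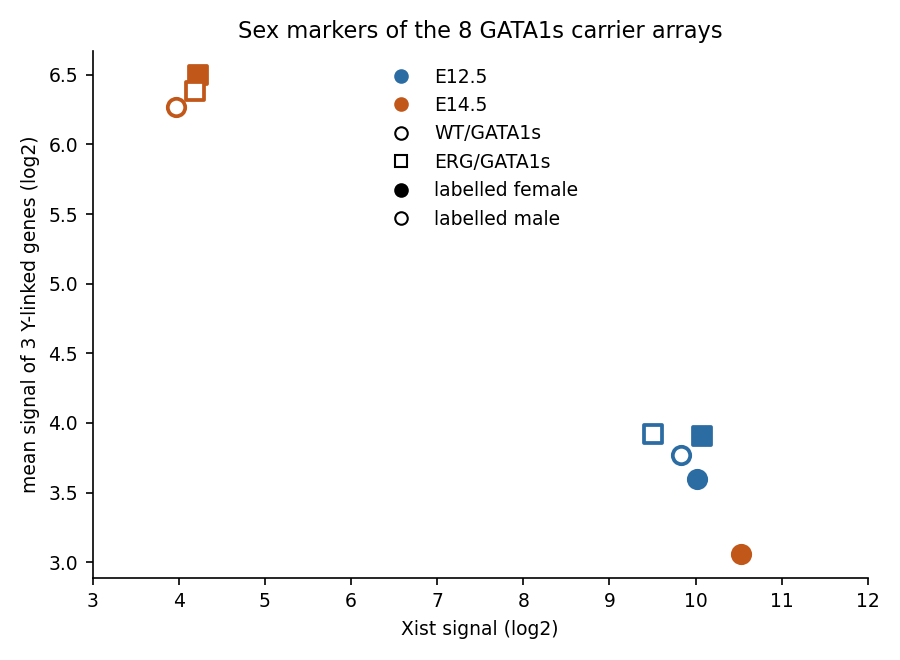
Xist signal (x axis, log2) against the mean signal of 3 Y-linked genes (y axis, log2) for the 8 carrier arrays; colour is stage, shape is genotype, and filled points are labelled female. The 4 E12.5 arrays and 1 E14.5 array sit at an Xist signal of 9.51 or more, and the other 3 E14.5 arrays sit at 4.22 or less.

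Stage was the main difference among the carrier arrays. Along the first principal component, with 69.9% of the variance, the arrays ran from -45.6 to -21.7 at E12.5 and from 25.6 to 40.6 at E14.5, with no overlap. At E12.5 the ERG/GATA1s array labelled male lay apart on the second component (11.3% of the variance), at 27.9 against -17.2 to 11.4 for the rest. The checks of tissue gave high signal for hepatocyte and red cell genes on all 8 arrays (Alb at least 10.95, Slc4a1 at least 10.65). Of the markers of other organs, Cdx2 and Ins2 stayed between 3.63 and 4.4, near the level of 3.74 below which a signal is called dim here (the 30th percentile of all values). Myh6 did not, as described below.

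Of 15742 genes tested, 3071 rose (19.5%) and 2363 fell (15%) from E12.5 to E14.5 in carriers, by limma with genotype as a block and a Benjamini-Hochberg adjusted p under 0.05. The large changes were mostly rises: 168 genes rose at least 4-fold and 5, the sex marker Xist among them, fell as much. Of the 35 that rose at least 8-fold, 20 belonged to the hepatocyte lists. The median change of all genes was -0.05. The share of calls that were rises was 56.5% in this fit, 44% with quantile normalization added and 44.2% when each array was centred on its median, so the overall balance of rises and falls depends on the scaling. The 4 arrays of one stage lay entirely above those of the other for 3061 genes higher at E14.5 (19.4%) and 2903 lower (18.4%). Leaving out the 3 arrays with opposing markers, 2138 genes were called, and 1280 with the female-side arrays alone; 99.5% of the 5434 calls kept their sign on the latter arrays and 21.5% were called there in the same direction. The female-side arrays are among the 8 that gave the calls, so this agreement in sign is partly built in. Without the E12.5 WT/GATA1s array labelled female the count of calls was 3573, and without any other single array it lay between 3744 and 7873.

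The strongest rises were genes that hepatocytes use to make plasma proteins and to handle lipids and drugs. Aadac, an arylacetamide deacetylase of the liver, had signals of 4.48, 4.38, 4.21 and 4.02 at E12.5, then 9.43, 9.69, 8.70 and 8.57 at E14.5. Every E14.5 array was far above every E12.5 array, and the rise was 4.83 ± 0.14 (SE) on the log2 scale, or 28.3-fold (limma adjusted p = 1.92e-08). Serpina1c, an alpha-1 antitrypsin gene, rose from 3.55, 4.02, 4.11 and 4.04 to 8.78, 9.20, 8.32 and 7.51, a change of 4.52 ± 0.27. It started near the dim level, where the array understates a fold.

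Apoh, the phospholipid-binding beta-2 glycoprotein I, read 4.89, 4.98, 5.46 and 4.8 at E12.5, then 9.86, 9.75, 9.21 and 8.75 at E14.5, a rise of 4.36 ± 0.22 with no overlap of stages. Fabp1, which carries fatty acids in hepatocytes, rose by 4.0 ± 0.20, and Ahsg, the plasma glycoprotein fetuin-A, by 3.69 ± 0.14. Pzp (3.65), Mgst1 (3.60), Fgg (3.56), Gsta3 (3.53), Rgn (3.51), Bex1 (3.5) and Hc (3.46) made up the rest of the 12 largest rises. Fgg encodes the gamma chain of fibrinogen, Hc complement component C5, and Mgst1 and Gsta3 glutathione transferases. Rising in each of the 4 pairs of the same genotype and labelled sex was a condition of this ranking, so it adds no support. All 12 genes kept their call when any single array was left out. They also passed with the female-side arrays alone.

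The gene lists gave the same picture for liver cells. The carrier counts of each list, here and below, stand beside 19.5% of all genes that rose and 15% that fell. Of 54 plasma protein genes tested, 49 rose and 1 fell, with a median change of 2.40. The faller was Apoa4 (-0.30, adjusted p = 0.0339), named after its value was seen, and its call was lost without any one of 6 arrays, all but the E12.5 ERG/GATA1s pair (adjusted p 0.0568 to 0.116). Ttr, which carries thyroid hormone and retinol-binding protein, went from 8.86, 8.74, 8.90 and 8.81 to 11.54, 11.68, 11.37 and 11.19, a rise of 2.62 ± 0.11. Alb, already near the top of the scale at E12.5, rose by 1.08 ± 0.10, and Afp, the fetal counterpart of albumin, by 1.68 ± 0.12. The fibrinogen chains Fga (3.0) and Fgb (2.86), prothrombin F2 (2.74) and antithrombin Serpinc1 (2.74), also named after their values were seen, rose with them.

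Of 43 genes of hepatocyte metabolism and transport, 35 rose and none fell (median 1.31). Cps1, which starts the urea cycle, read 3.73, 3.73, 3.73 and 3.91 at E12.5, at the dim level, and 7.44, 7.31, 6.12 and 4.96 at E14.5. Both WT/GATA1s arrays were above both ERG/GATA1s arrays at the later stage, and the lowest E14.5 value was still above all E12.5 values (rise 2.68 ± 0.35, adjusted p = 0.000238). Otc (2.58), of the same cycle, Mat1a (2.60), which makes S-adenosylmethionine, and the canalicular transporter Abcc2 (3.01) rose too. The gluconeogenic enzymes Pck1 (-0.24) and G6pc (-0.23) and the bile acid enzyme Cyp8b1 (-0.13) did not pass. These 6 were chosen after their values were seen.

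Of 30 hepatocyte transcription factors and hepatoblast genes, 20 rose and 1, the biliary factor Sox9, fell by 0.56 (median of the list 1.0, with Sox9 at an adjusted p of 0.552 on the female-side arrays). Hnf4a, a master regulator of hepatocytes, went from 6.20, 6.18, 6.37 and 6.32 to 8.07, 8.40, 7.70 and 7.57, with no overlap and a rise of 1.67 ± 0.15. Foxa3 rose by 2.15, Prox1 by 1.96 and the HGF receptor Met by 2.06. Foxa1 (0.28), Foxa2 (-0.11) and Onecut1 (0.42), chosen after their values were seen, did not pass. With the female-side arrays alone 45, 30 and 18 members of these lists rose, and none fell.

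The lists of other liver cells also held more rises than falls at E14.5. Of 31 macrophage genes 23 rose and none fell, with a median of 0.80, and 15 rose with the female-side arrays alone. Cd5l, a protein secreted by tissue macrophages, read 3.29, 3.34, 3.14 and 3.57 at E12.5, below the dim level, and 6.64, 7.06, 7.02 and 6.22 at E14.5. The stages did not overlap, and the change was 3.40 ± 0.18. Vcam1, an adhesion molecule of erythroblastic islands, rose by 2.53, Slc40a1, the iron exporter ferroportin, by 2.02, and Adgre1, a surface marker of mature macrophages, by 1.64. Spic (1.56), Mertk (1.63) and Timd4 (1.13), genes of macrophages that clear red cells and dying cells, rose as well, and Csf1r (0.32), Cx3cr1 (-0.18) and the scavenger receptor Marco (0.37) did not pass. These 6 were chosen after their values were seen.

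Of 34 endothelial genes 15 rose and 1 fell (median 0.32). The risers were led by genes of sinusoidal endothelium: Gpr182 rose by 2.03 ± 0.16, Stab2 by 1.76 ± 0.12 and Lyve1 by 1.52 ± 0.11. Of 2 markers of endothelium in general, the endothelial cadherin Cdh5 rose by 1.5 (adjusted p = 6.96e-06) and Pecam1 changed by -0.08 and did not pass. Of 36 stellate and mesenchymal genes 17 rose and 4 fell (median 0.40). Kitl, the ligand of the receptor Kit on blood progenitors, went from 3.94, 4.10, 4.36 and 4.11 to 6.73, 6.77, 6.17 and 6.58, a rise of 2.44 ± 0.15 with no overlap. Alcam (2.48), the proteoglycans Dcn (2.43), Bgn (2.13) and Lum (2.06), and the chemokine Cxcl12 (1.64, named after its value was seen) rose. The collagens Col1a1 (-0.53) and Col5a1 (-0.41), named after their values were seen, were among the 4 that fell. Both passed by limma (adjusted p = 0.0258 and 0.0279). The Col1a1 call was lost without any one of 6 arrays, and the Col5a1 call without any one of 5.

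**Figure D2:**
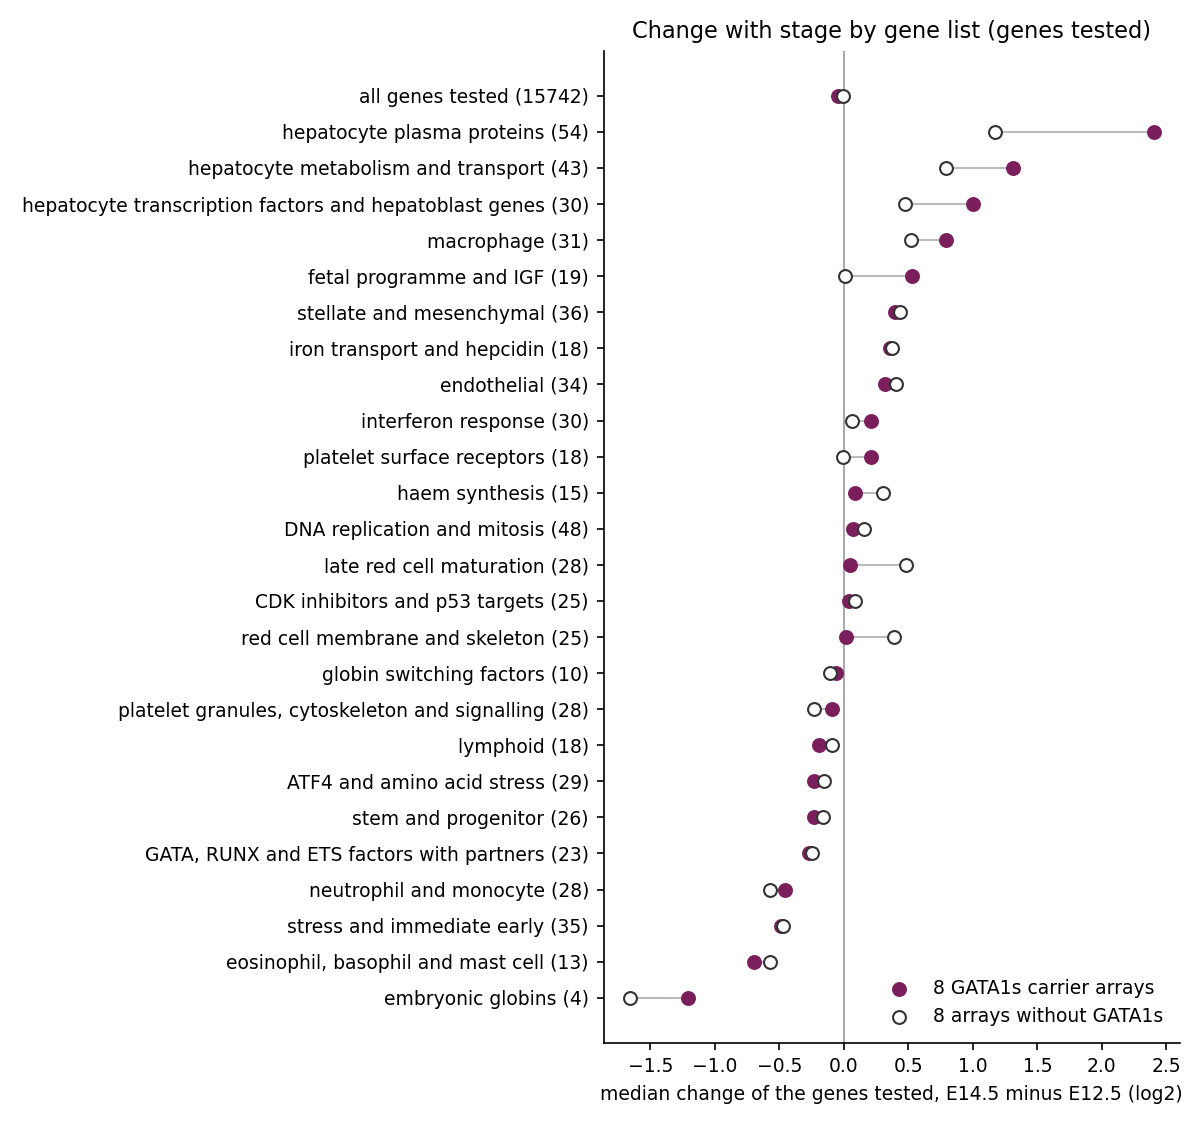
Median change from E12.5 to E14.5 (x axis, log2) of each gene list, with the number of genes tested in brackets, in the 8 carrier arrays (filled) and the 8 arrays without GATA1s (open). The hepatocyte plasma protein list lies farthest to the right, at 2.40 in carriers and 1.17 without GATA1s, and the embryonic globins lie farthest to the left, at -1.21 and -1.66.

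Iron handling moved with the liver genes. Of 18 iron transport genes 8 rose and 1 fell, and none passed for the difference between the carrier genotypes. Hamp, which encodes the iron hormone hepcidin, was 4.21, 3.95, 3.45 and 3.52 at E12.5, then 4.36, 6.48, 8.76 and 7.93 at E14.5. The WT/GATA1s array labelled female, the only E14.5 array on the female side, was barely above its E12.5 partners, and the ERG/GATA1s arrays were the highest (rise over both genotypes 3.10 ± 0.64, adjusted p = 0.00407). With the female-side arrays alone the change was 0.28 and the call was lost (adjusted p = 0.637). Trf, the plasma iron carrier transferrin, rose by 2.03 ± 0.12, Cp, the ferroxidase ceruloplasmin, by 2.56 ± 0.28 and Hjv, a co-receptor that controls hepcidin, by 1.53 ± 0.17. Erfe, the erythroid hormone that lowers hepcidin and the 1 member that fell, did so by 0.46, and was not called on the female-side arrays (adjusted p = 0.366).

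All 4 embryonic globins fell, as did some members of the red cell lists described below. Hbb-bh1, a beta-like globin of primitive red cells, went from 11.23, 11.29, 11.69 and 11.62 to 9.89, 9.13, 8.03 and 8.82, a fall of 2.49 ± 0.29 (adjusted p = 0.000106). Hba-x, the embryonic zeta chain, went from 12.02, 12.06, 12.30 and 12.33 to 10.14, 9.84, 10.56 and 10.83, a fall of 1.83 ± 0.13 (adjusted p = 2.23e-06). The stages did not overlap for either gene.

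Hbb-y, the epsilon-like chain, fell by 0.58 ± 0.10, from 12.37, 12.29, 12.49 and 12.63 to 11.88, 11.62, 11.96 and 12.01. These values are within 2 units of the highest signal on any array (13.32), where an array compresses differences. Hbb-bh2 was close to background, at 4.41, 4.5, 4.70 and 4.31 and then 4.01, 4.23, 4.10 and 4.08. Its fall of 0.38 passed (adjusted p = 0.0265), but the call was lost, with adjusted p between 0.0539 and 0.0809, on leaving out any one of 5 arrays: the E12.5 WT/GATA1s pair, the E14.5 ERG/GATA1s pair and the E14.5 WT/GATA1s array labelled female. With the female-side arrays alone Hbb-bh1 and Hba-x were called and Hbb-y (change -0.45, adjusted p = 0.387) and Hbb-bh2 (adjusted p = 0.424) were not. None of the 6 adult globin genes listed had a probe set with a single gene symbol, so adult chains were not measured here.

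The promoters of Hba-x and Hbb-y are shown because these genes fell together and the RefSeq table holds both. Each window is 300 bases long and reaches past the start by 50 bases, in build GRCm38.p6 of RefSeq. The letters searched on both strands were AGATAA and TGATAA (bound by GATA factors), CCACCC (bound by KLF factors) and CCAAT, and matches are in capitals. Of all 32851 such windows, 11.2% hold AGATAA, 9.05% TGATAA, 31.5% CCACCC and 37.4% CCAAT, and 4.39% hold CCACCC with one of the GATA words. A match describes the sequence only.
Hba-x, chr11:32276350-32276649, plus strand: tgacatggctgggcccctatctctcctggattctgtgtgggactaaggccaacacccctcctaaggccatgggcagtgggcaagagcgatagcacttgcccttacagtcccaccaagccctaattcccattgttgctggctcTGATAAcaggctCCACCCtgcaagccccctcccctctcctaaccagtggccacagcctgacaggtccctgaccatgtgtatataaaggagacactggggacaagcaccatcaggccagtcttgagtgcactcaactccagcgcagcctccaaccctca
Hbb-y, chr7:103853158-103853457, minus strand: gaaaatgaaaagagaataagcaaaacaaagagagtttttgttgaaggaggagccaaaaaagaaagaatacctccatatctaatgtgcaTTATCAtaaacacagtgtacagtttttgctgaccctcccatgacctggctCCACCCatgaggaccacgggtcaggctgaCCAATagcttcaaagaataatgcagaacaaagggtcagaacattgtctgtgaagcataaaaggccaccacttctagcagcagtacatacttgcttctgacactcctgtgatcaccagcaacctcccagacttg
In Hba-x TGATAA begins 108 bases and CCACCC 96 bases before the start. In Hbb-y TGATAA lies on the opposite strand 162 bases before the start, CCACCC begins at 112 and CCAAT at 83. The Hbb-bh2 window holds AGATAA at 167 bases and none of the other words.

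Of 10 factors that act in globin switching, 3 fell and 2 rose, beside 15% and 19.5% of all genes. Myb, a progenitor factor whose loss raises embryonic globins, read 8.61, 8.68, 8.89 and 8.52 and then 7.76, 7.69, 8.01 and 7.97, a fall of 0.82 ± 0.11 with no overlap. Ikzf1 fell by 0.78 and the repressor Zbtb7a by 0.58. Bcl11a, which silences embryonic globins, was 8.82, 8.76, 9.24 and 8.81 and then 9.01, 9.0, 9.17 and 8.91, with overlapping stages and a change of 0.12 ± 0.12 that did not pass. Klf1 (-0.01), Chd4 (-0.11), Mbd2 (0.08) and Nr2c2 (-0.12) did not pass either. Sox6 rose by 0.43 (adjusted p = 0.0247), a call lost without either E12.5 WT/GATA1s array or either E14.5 array labelled female (adjusted p 0.0508 to 0.09). Nr2c1 rose by 0.56 (adjusted p = 0.019), which no longer passed on leaving out, at E12.5, the WT/GATA1s array labelled female (0.07) or, at E14.5, the ERG/GATA1s array labelled male (0.0536). With the female-side arrays alone Ikzf1 (change -0.69), Zbtb7a (-0.36), Sox6 (0.45) and Nr2c1 (0.58) were not called.

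**Figure D3:**
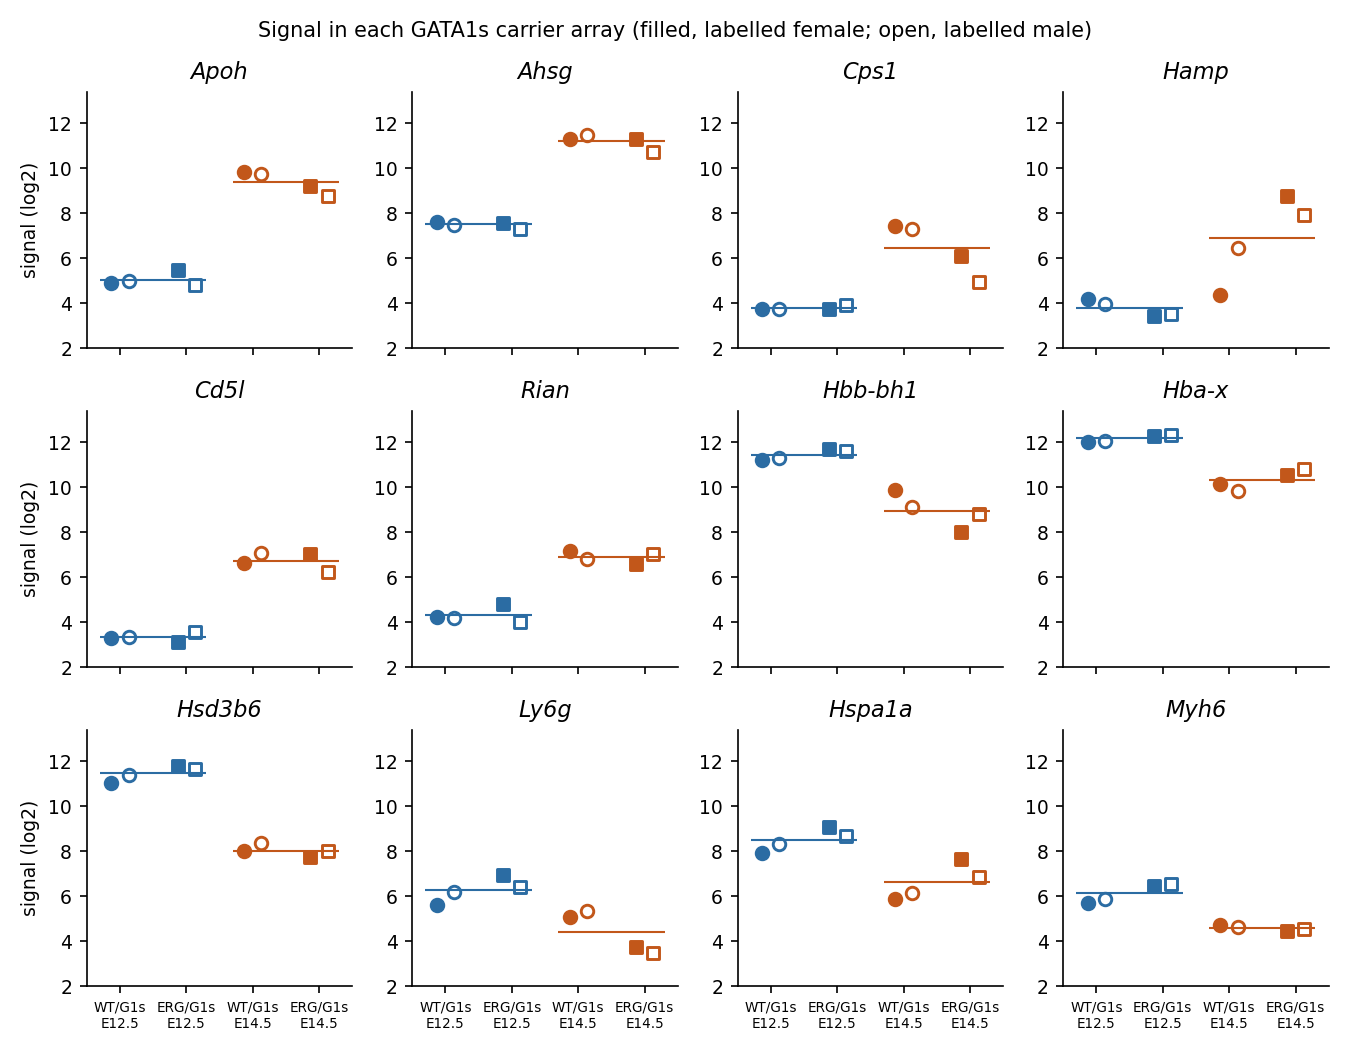
Signal (y axis, log2) of 12 genes on each of the 8 carrier arrays, by genotype and stage (G1s is GATA1s), with filled points for arrays labelled female and lines at the mean of each stage. Apoh rises from at most 5.46 to at least 8.75 and Hbb-bh1 falls from at least 11.23 to at most 9.89. Hamp and Ly6g are spread at E14.5, where genotype and sex cannot be fully told apart.

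Few genes of red cell maturation passed in carriers, and list medians had opposite signs in the genotypes. Of 28 late maturation genes 3 rose and 3 fell (median 0.04), of 25 membrane and skeleton genes 1 rose and 3 fell (median 0.02), and of 15 haem synthesis genes 2 rose and 1 fell (median 0.09). With quantile normalization added these medians were -0.04, -0.13 and -0.05, so their sign is not settled. In WT/GATA1s alone, where 12.4% of all genes rose and 7.57% fell, 6 late maturation genes rose and 1 fell, with a median of 0.28. In ERG/GATA1s alone, where 11.5% rose and 6.1% fell, 3 rose and 5 fell, with a median of -0.32. The mean signal of the 28 genes was 8.91, 8.95, 9.09 and 8.67 at E12.5, then 9.30, 9.31, 8.75 and 8.49 at E14.5. Both WT/GATA1s means were thus higher at E14.5, while the ERG/GATA1s arrays overlapped between stages. For the difference between the genotypes 2 of the 28 passed, both more negative in ERG/GATA1s. In the arrays without GATA1s, where 19% of all genes rose and 10.7% fell, 17 of the 28 rose and 4 fell (median 0.48). For the difference between carriers and arrays without GATA1s 1 of the 28 passed higher, 2 passed lower and 25 did not pass.

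Bpgm, which makes 2,3-bisphosphoglycerate in red cells, read 7.37, 7.32, 7.91 and 7.23 at E12.5, then 8.41, 8.38, 6.26 and 6.30 at E14.5. It was higher at E14.5 in both WT/GATA1s arrays and lower in both ERG/GATA1s arrays, a difference between genotypes of -2.34 ± 0.36 (adjusted p = 0.0193). Xpo7, a nuclear export protein of maturing red cells, read 9.37, 9.48, 9.55 and 9.11 and then 10.66, 10.45, 8.76 and 8.64 (difference -1.76 ± 0.33, adjusted p = 0.0468). The Xpo7 call was lost without any one of the 8 arrays (adjusted p up to 0.24). The Bpgm call was lost without any one of 5, which were all 4 WT/GATA1s arrays and 1 of ERG/GATA1s, labelled female at E14.5 (up to 0.14). Klf1, Slc4a1 and Alas2, which define the red cell lineage, had mean changes of -0.01, -0.29 and -0.11 and did not pass.

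Of 18 platelet surface receptors 3 rose and 2 fell (median 0.21), beside 19.5% and 15% of all genes. Of 28 genes of platelet granules, cytoskeleton and signalling 7 rose and 5 fell (median -0.09). In WT/GATA1s 5 receptors fell and 1 rose (median -0.23), and in ERG/GATA1s 8 rose and 0 fell (median 0.67). Of both lists only Cd226 passed for the difference between the genotypes, with the more positive change in ERG/GATA1s. Cd226, an adhesion receptor of platelets and lymphocytes, read 5.24, 5.16, 4.21 and 4.23 and then 5.56, 6.04, 6.20 and 6.16. At E12.5 it was lower in ERG/GATA1s than in WT/GATA1s, and at E14.5 all arrays were higher (rise 1.28 ± 0.23, adjusted p = 0.00207). Ppbp, a chemokine of platelet granules, rose by 1.17 ± 0.19, from 10.31, 10.18, 9.23 and 8.77 to 10.88, 10.99, 10.70 and 10.60. Itga2b, the alpha chain of the fibrinogen receptor, changed by -0.40 and did not pass. On the female-side arrays, whose change is that of WT/GATA1s only, the median of the receptors was -0.475, which repeats the direction in that genotype. The balance of these lists thus depends on the genotype of the arrays used, and sex cannot be told apart from it here. All 3 male-side arrays are from E14.5 and 2 of them are ERG/GATA1s.

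Whether stage acts differently in the 2 carrier genotypes was tested for every gene, and the change was more positive in ERG/GATA1s for 26 genes (0.165%) and more negative for 14 (0.0889%). Nrip3, which binds nuclear receptors, read 5.13, 4.78, 4.49 and 4.61 at E12.5, then 4.17, 3.94, 7.98 and 7.14 at E14.5, so that only the E14.5 ERG/GATA1s arrays were high. Its difference was 3.91 ± 0.36 (adjusted p = 0.000549), and among the 16 named differences it alone passed under all 18 alternatives run. Gata2, a factor of blood progenitors, read 8.43, 8.58, 8.39 and 8.28 and then 6.31, 6.84, 8.68 and 8.43. It was low only in the E14.5 WT/GATA1s arrays (difference 2.15 ± 0.32, adjusted p = 0.0167). That call was lost without any one of 5 arrays, the E12.5 arrays other than ERG/GATA1s labelled female and the E14.5 arrays labelled female (adjusted p up to 0.14).

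Cxcl10 (2.68) and Ccl2 (2.24), which are chemokines, Parm1 (2.63), Gem (2.05), Cpne7 (1.98) and Septin1 (1.95) were the other large positive differences. Runx1t1 (-2.33), Cfap57 (-1.98), Cps1 (-1.92), Ttpa (-1.65), Abcb11 (-1.61) and Fam220a (-1.48) were the other negative ones beside Bpgm and Xpo7. Each of these 12 was lost on leaving out between 3 and 8 of the 8 arrays in turn. With the 3 arrays with opposing markers left out, only Cps1 and Nrip3 were called. Without either E12.5 WT/GATA1s array 1 gene was called, and without each other array between 3 and 50. The E14.5 ERG/GATA1s arrays were both on the male side and the E14.5 WT/GATA1s arrays were 1 on each, and the part of sex in these differences was not tested beyond that.

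Calls within each genotype overlapped in part. Of 1947 genes that rose in WT/GATA1s, 1177 (60.5%) also rose in ERG/GATA1s, which is 65.2% of the 1806 that rose there, and 5 fell. Of 1191 that fell in WT/GATA1s, 444 (37.3%) also fell in ERG/GATA1s, 46.2% of the 961 there, and 12 rose. The 2 genotypes share no array.

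**Figure D4:**
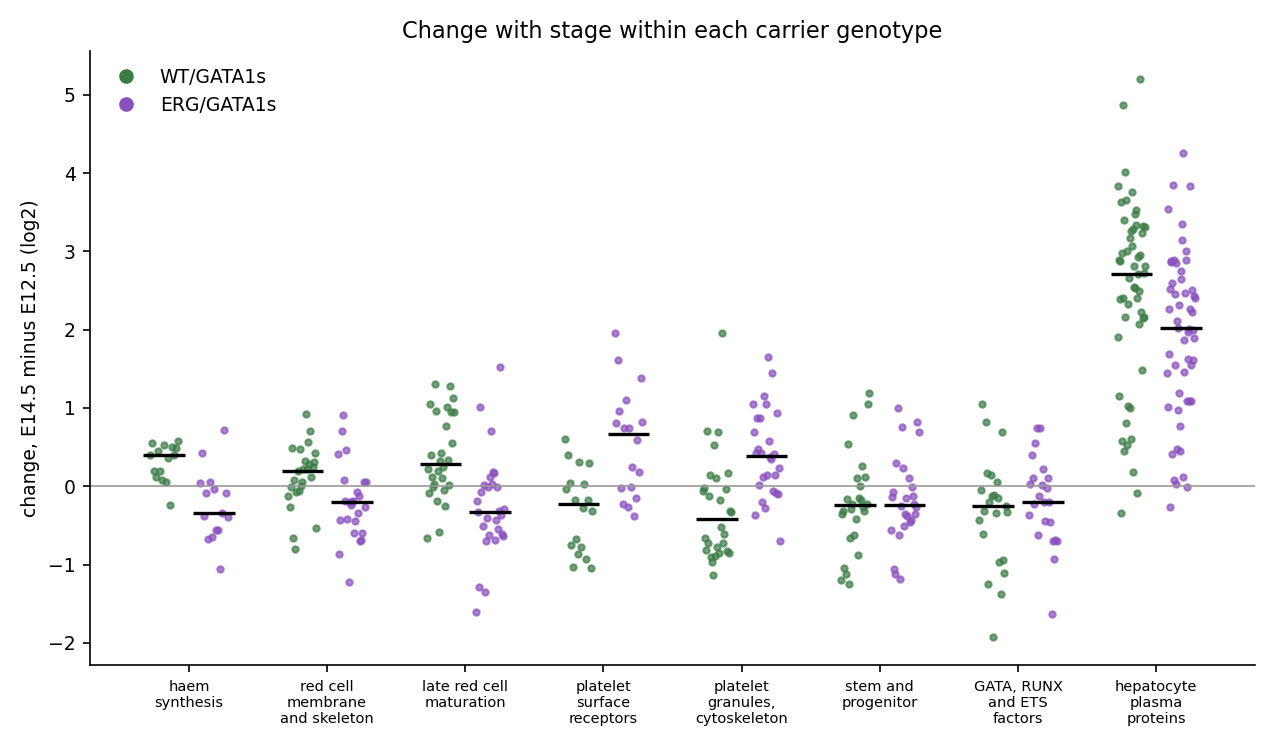
Change from E12.5 to E14.5 (y axis, log2) of each gene tested in 8 lists, in WT/GATA1s (green) and ERG/GATA1s (purple), with black bars at the list medians. Red cell lists have medians above 0 in WT/GATA1s and below 0 in ERG/GATA1s, platelet lists the reverse, and plasma protein genes are high in both (2.71 and 2.02).

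Of 26 stem and progenitor genes 8 fell, 4 rose and 14 did not pass (median -0.24). Cd34, a surface protein of progenitors and endothelium, read 8.38, 8.40, 8.78 and 8.64 and then 7.06, 7.47, 7.55 and 7.64, a fall of 1.12 ± 0.11 with no overlap. Cd27 fell by 1.05, Flt3 by 0.92 and Kit, the receptor for the Kitl described above, by 0.63; Flt3 and Kit, named after their values were seen, had adjusted p of 0.0523 and 0.0504 on the female-side arrays. Tek (0.94) and Prom1 (0.93), which other cells of the liver also express, rose.

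Of 23 GATA, RUNX and ETS factors with their partners, 9 fell and 3 rose (median -0.27). Runx1, a factor needed to form blood stem cells, read 9.47, 9.54, 9.32 and 9.08 and then 7.87, 8.40, 8.74 and 8.74, a fall of 0.92 ± 0.19 with no overlap. Spi1, the myeloid factor PU.1, fell by 1.02 ± 0.16, and the GATA1 partner Zfpm1, named after its value was seen, by 0.52 (adjusted p = 0.836 on the female-side arrays). Gata1 itself read 9.56, 9.58, 9.60 and 9.30 and then 9.26, 9.64, 9.53 and 9.40, with overlapping stages and a change of -0.05 ± 0.12. Erg (-0.27) and Fli1 (-0.17) did not pass. Whether these probe sets tell the forms of GATA1 apart or read the transgene is not known.

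Granulocyte genes fell in part. Of 28 neutrophil and monocyte genes 16 fell and 3 rose (median -0.46), and 13 fell and none rose with the female-side arrays alone. Ngp, a granule protein of maturing neutrophils, read 10.50, 10.60, 10.87 and 10.74 and then 8.63, 9.5, 9.47 and 8.90, a fall of 1.55 ± 0.18. Camp (-1.33), Ltf (-1.24) and Mmp8 (-1.04, named after its value was seen), also proteins of the later granules, fell. Ctsg, a protease of the earliest granules, read 6.16, 6.07, 6.37 and 5.74 and then 6.79, 7.64, 8.51 and 7.98, a rise of 1.65 ± 0.26. Ms4a3 (0.98) and Plac8 (0.69) were the other genes that rose, and neither was called on the female-side arrays (adjusted p = 0.971 and 0.954). Plac8 was also lost without any one of the 4 ERG/GATA1s arrays (adjusted p 0.0719 to 0.116). Elane, another early granule protease, changed by 0.61 and did not pass (adjusted p = 0.0856), and Mpo, of the same granules, fell by 0.64.

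Of 13 eosinophil, basophil and mast cell genes tested 8 fell and none rose (median -0.70); 11 further listed genes with a single symbol were too dim to test. Epx, the eosinophil peroxidase, read 6.70, 6.95, 7.78 and 6.88 and then 5.15, 5.40, 5.65 and 5.45, a fall of 1.67 ± 0.18 with no overlap. Cpa3, a protease of mast cells and basophils, fell by 1.29 ± 0.20. Of 18 lymphoid genes 5 fell and none rose (median -0.19), none was called on the female-side arrays, and Rag1 and Il7r stayed near the dim level, between 3.25 and 4.4.

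Of 35 stress and immediate early genes 19 fell and 1 rose (median -0.49), and 16 fell with the female-side arrays alone. Hspa1a, an inducible heat shock protein, read 7.92, 8.34, 9.08 and 8.69 and then 5.89, 6.15, 7.67 and 6.84, a fall of 1.87 ± 0.19 with no overlap. Ptgs2, the inducible cyclooxygenase, fell by 1.67 ± 0.29, Nr4a1 by 1.58 ± 0.17 and Jun, a subunit of AP-1, by 1.5 ± 0.15. Genes of this kind also respond to tissue handling, whose part was not tested. Among ATF4 targets 6 of 29 fell and 4 rose, beside 15% and 19.5% of all genes. Sesn2 (-1.74), Chac1 (-1.07) and Trib3 (-1.05) fell, while Cth (1.54) and Gpt2 (0.99) rose.

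Of 48 genes of DNA replication and mitosis 9 rose and 9 fell (median 0.07), or 8 and 16 with quantile normalization added. In the main fit these counts were near the shares of all genes, 19.5% that rose and 15% that fell. Among single members, E2f1, which switches on replication genes, fell by 0.75, and Ttk (0.92), Cenpe (0.91), Birc5 (0.78) and Top2a (0.69) rose. With the female-side arrays alone 1 rose and 0 fell. Among interferon response genes 13 of 30 rose and 2 fell (median 0.21), led by Ifitm3 (1.05) and Rtp4 (0.96). In ERG/GATA1s alone 12 rose and 1 fell (median 0.44), and in WT/GATA1s alone 3 rose and 0 fell (median 0.07). None of the 30 passed for the difference between these genotypes. With each array centred on its median 7 rose, and 2 rose without the 3 arrays with opposing markers. No interferon gene was called with the female-side arrays alone.

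Of 19 genes of the fetal programme and insulin-like growth factors 11 rose and 5 fell (median 0.53). Igfbp1, a binding protein secreted by liver, read 5.60, 5.94, 5.87 and 6.13 and then 8.34, 8.28, 10.83 and 9.68, a rise of 3.40 ± 0.33. The rise was larger in ERG/GATA1s, whose E14.5 arrays both lay on the male side. None of the 19 genes passed for the difference between the carrier genotypes. The imprinted genes Plagl1 (1.51), Peg3 (1.51), Dlk1 (1.32), Igf2 (1.01) and Cdkn1c (0.85) rose, and the fetal proliferation gene Hmga2 fell by 1.05. Igf2 and Hmga2 were named after their values were seen.

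A block of noncoding genes beside Dlk1 on chromosome 12, chosen after its values were seen, rose with it. Dlk1, a membrane protein of hepatoblasts, read 9.55, 9.82, 9.98 and 10 and then 11.13, 11.41, 11.13 and 10.97. Rian, a long RNA made from the maternal chromosome of this imprinted region, read 4.24, 4.19, 4.83 and 4.01 and then 7.15, 6.80, 6.58 and 7.02, a rise of 2.57 ± 0.18 with no overlap. Meg3 rose by 0.70, and Rtl1 changed by 0.28 and did not pass.

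Of 27 microRNA genes tested in the interval chr12:109563692-109747960 (GRCm38.p6, RefSeq), 17 rose and none fell, with a median of 0.44. Of the other 113 microRNA genes tested 9 rose and 23 fell (median -0.27). These probe sets read the hairpin or its longer precursor, not the mature microRNA, and 10 of the 27 were below the dim level at E12.5. On the female-side arrays 10 rose, and without each single array between 13 and 18. Without GATA1s 10 rose and none fell (median 0.33), and none of the 27 passed for the difference. Among the 4 E14.5 arrays without GATA1s, the WT array labelled female was the highest for each of the 27. Mir380 read 6.1 there against 3.49 to 4.08 on the others, and Mir300 read 5.53 against 3.17 to 3.23. The mean rise without GATA1s thus leaned in part on 1 array, which also widened the spread. The mature sequences of the 6 genes that rose most are shown, 1 arm each, with the seed (bases 2 to 8) in capitals, because the seed sets which messages a microRNA can pair with.
mmu-miR-382-5p, chr12:109733781-109733802, plus strand: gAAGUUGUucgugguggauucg
mmu-miR-323-3p, chr12:109712558-109712578, plus strand: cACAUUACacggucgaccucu
mmu-miR-380-3p, chr12:109711842-109711863, plus strand: uAUGUAGUaugguccacaucuu
mmu-miR-485-3p, chr12:109734946-109734967, plus strand: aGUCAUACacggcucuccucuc
mmu-miR-679-5p, chr12:109715587-109715608, plus strand: gGACUGUGaggugacucuuggu
mmu-miR-377-3p, chr12:109740553-109740574, plus strand: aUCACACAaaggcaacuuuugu
No seed was shared among these genes. Their changes were 1.95 for Mir382 and for Mir323, 1.62 for Mir380, 1.58 for Mir485, 1.45 for Mir679 and 1.3 for Mir377.

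**Figure D5:**
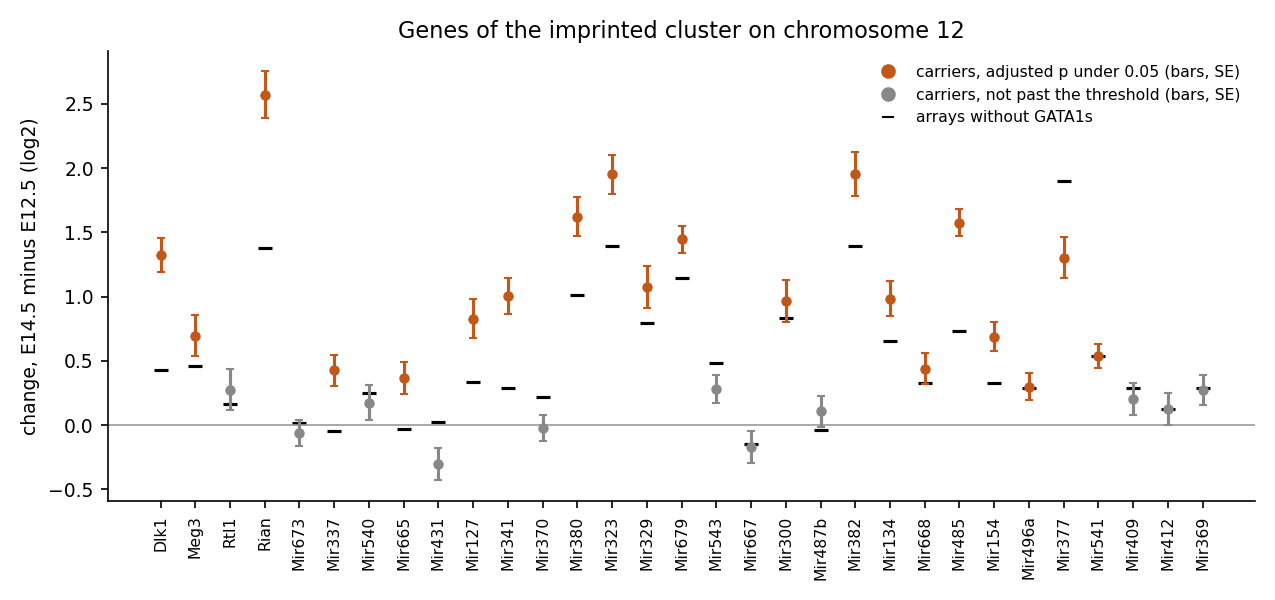
Change from E12.5 to E14.5 (y axis, log2) of genes of the chromosome 12 cluster in carriers (points with SE, orange where adjusted p was under 0.05) and in arrays without GATA1s (black dashes). Rian rises most, by 2.57, and 17 of the 27 microRNA genes are orange.

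Among genes that fell in all 4 pairs of the same genotype and labelled sex, the largest falls outside these lists were of single genes. The lowest change of any gene tested, -4.13, was that of the sex marker Xist. Xist rose in the WT/GATA1s pair labelled female (10.02 to 10.53) and so is not ranked here. Hsd3b6, a 3-beta-hydroxysteroid dehydrogenase, read 11.04, 11.39, 11.81 and 11.64 and then 7.99, 8.37, 7.74 and 7.99, a fall of 3.45 ± 0.18 or 10.9-fold (adjusted p = 4.23e-07). Hormad1, a protein of meiotic chromosomes, read 7.44, 8.06, 8.30 and 8.14 and then 4.70, 4.69, 5.37 and 5.98, a fall of 2.80 ± 0.18. Stages did not overlap for either gene. AY036118 (-2.30), Ly6g (-1.89), Tnfrsf13c (-1.75), which encodes the BAFF receptor, and the small nucleolar RNA Snora31 (-1.65) completed the 12 largest falls with genes named above. On the female-side arrays Ly6g changed by -0.83 (adjusted p = 0.13), and its fall was not called without the 3 arrays with opposing markers (adjusted p = 0.12). Hsd3b6 belongs to a family of near-identical copies that can share probes.

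Myh6, the cardiac alpha myosin heavy chain and a marker of another organ, fell with stage. It read 5.71, 5.87, 6.45 and 6.53 at E12.5, then 4.70, 4.61, 4.44 and 4.56 at E14.5, a fall of 1.56 ± 0.16 (adjusted p = 4.07e-05). The cardiac genes Myh7 (-1.24), Tbx5 (-1.37), Nppa (-0.99) and Tnni3 (-0.83), chosen after their values were seen, fell as well, with Nppa and Tbx5 not called on the female-side arrays (adjusted p = 0.099 and 0.0678). Actc1 was 7.59, 7.78, 8.42 and 8.34 and then 6.74, 8.76, 9.64 and 6.41, and Myl4 had its lowest and highest signals on the same E14.5 arrays (5.15 to 7.89). Their part in the other changes was not tested.

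Whether stage acts differently with and without GATA1s was tested on all 16 arrays. The change was larger (more positive) in carriers for 199 genes (1.26%) and smaller for 59 (0.375%). Of the 199, 41 are in the hepatocyte lists, 32.3% of the 127 such genes tested, and none of the 59 is. Of the 199, 175 rose in carriers and 115 also rose without GATA1s. Leaving out the 3 arrays with opposing markers left 4 genes, Cps1, Fosb, Kitl and Klk1b22. Leaving out the E12.5 WT/GATA1s array labelled female left 76, and leaving out the E14.5 WT array labelled male gave 747.

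The plasma protein list shows where the difference lay. Its mean signal was 6.21, 6.21, 6.35 and 6.28 on the E12.5 carrier arrays and 7.02, 6.88, 7.13 and 6.57 on the E12.5 arrays without GATA1s (WT labelled female and male, then ERG labelled female and male). At E14.5 it was 8.62, 8.76, 8.39 and 8.11 in carriers and 7.86, 8.53, 7.97 and 8.11 without GATA1s. Carriers were lower at E12.5, with no overlap, and the ranges overlapped at E14.5. The list's median change was 2.40 in carriers and 1.17 without GATA1s, and 25 of its 54 genes passed for the difference.

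Among single genes, Cps1 was at the dim level on all 8 arrays without GATA1s at both stages (3.48 to 3.93) and rose only in carriers, a difference of 2.54 ± 0.25 (adjusted p = 0.000712). Bche (2.26), the butyrylcholinesterase of plasma, Serping1 (2.08), the C1 inhibitor, Aadac (2.08) and Elovl2 (1.93), which lengthens fatty acids, rose more in carriers. The Aadac difference was lost without either E12.5 WT/GATA1s array or the E14.5 ERG array labelled female (adjusted p up to 0.0568). Kitl was 5.12 to 5.47 at E12.5 without GATA1s against 3.94 to 4.36 in carriers, and the difference in change was 1.79 ± 0.19 by limma (adjusted p = 0.000935).

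Of 35 stress and immediate early genes 5 passed for a more positive change in carriers and 1 for a more negative one (median difference -0.02), and 29 did not pass. Kitl above, and Jun and Car1 here, were chosen for their differences after these were seen, and Ccl3 and Car1 are not of that list. Jun fell by 3.33 without GATA1s and by 1.5 in carriers (difference 1.83, adjusted p = 0.00441). Fosb was 4.57 to 4.99 at E14.5 without GATA1s and 8.10 to 9.05 in carriers (difference 2.68 ± 0.25, adjusted p = 0.000515). Ccl3, a chemokine, fell by 3.64 without GATA1s and by 1.32 in carriers. Car1, a carbonic anhydrase of early red cells, fell by 1.0 without GATA1s and rose by 0.70 in carriers (difference 1.71, adjusted p = 0.00394).

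In the other direction, Ly6g fell in carriers while its change without GATA1s was 0.73 (difference -2.62 ± 0.33, adjusted p = 0.0026, or 0.0952 without the 3 arrays with opposing markers), and Hsd3b6 fell by 1.94 without GATA1s and by 3.45 in carriers (difference -1.5). Muc6 (-2.01), Slc6a20a (-1.63) and Ankrd9 (-1.34) followed, and their calls held without any single array. Of the 59 genes 51 rose without GATA1s and 2 rose in carriers. The embryonic globins fell in both, by a median of 1.66 without GATA1s, and none of the 4 passed for the difference.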

How the data were processed

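The values are log2 signals of whole-transcript arrays, deposited by the authors as 1 table for 16 arrays and made with RMA, per the submitters' processing notes; its version and settings were not stated. Array medians lay between 4.79 and 4.94. Of 28270 probe sets 21780 had 1 gene symbol, 1617 several and 4873 none; 1 probe set was kept for each of 19934 symbols. The 15742 genes above the dim level (3.74) on at least 2 arrays were tested.

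Changes were fitted with limma 3.58.1 in R 4.3.3, two-sided, with Benjamini-Hochberg adjustment over all genes tested. The carrier comparison used the 8 carrier arrays with genotype as a block. The others came from 1 fit of 8 group means over 16 arrays. The fit was tested on simulated data.

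Members and gene lists were chosen with earlier results of these data known. Named genes were the 12 largest rises and falls going the same way in all 4 pairs of one genotype and labelled sex, up to 5 members of each list with the largest change past the threshold, all globin and switching genes, the 8 largest differences in each direction, design genes, sex markers and defining markers; exceptions are stated. Alternatives changed filter, scaling, variance model, weights, covariates, blocks and arrays. Probe sets with several symbols were left out.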

Additional observations from a re-analysis of the deposited data

Results flagged for a closer look

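Among 100 groups of 4 arrays (list means and named genes), 7 held an array far from the other 3, where its gap to the nearest divided by the range was above Dixon's critical value; chance gives about 1 in 20. At E12.5 the ERG/GATA1s array labelled male was low in the mean signal of CDK inhibitors and p53 targets (6.06, others 6.26 to 6.28), of interferon response genes (5.05, others 5.16 to 5.18) and of ATF4 targets (7.51, others 7.71 to 7.73). Serpina1c was 3.55 on the E12.5 WT/GATA1s array labelled female (others 4.02 to 4.11). The stem and progenitor mean was 5.88 on the E14.5 WT/GATA1s array labelled female (others 6.04 to 6.07). The eosinophil, basophil and mast cell mean was 5.55, at E14.5, on the ERG/GATA1s array labelled female (others 5.65 to 5.67). Fgg was 9.55 on the E14.5 ERG/GATA1s array labelled male (others 10.36 to 10.45).

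The change with stage differed between carriers and arrays without GATA1s, by limma's test of the difference. It was more positive in carriers for Fosb (2.68), Cps1 (2.54), Ccl3 (2.32), Klk1b22 (2.3), Bche (2.26), Aadac (2.08), Serping1 (2.08) and Elovl2 (1.93). It was more negative for Ly6g (-2.62), Muc6 (-2.01), Rsad2 (-1.67), Slc6a20a (-1.63), Hsd3b6 (-1.5), Isg20 (-1.45), Tcp11l2 (-1.35) and Ankrd9 (-1.34). Fosb, Cps1 and Klk1b22 passed under every alternative run. Rsad2, Isg20 and Tcp11l2 were lost without 6, 8 and 11 of the 16 arrays, each left out in turn.

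Between the carrier genotypes the change was more positive in ERG/GATA1s for Nrip3 (3.91), Cxcl10 (2.68), Parm1 (2.63), Ccl2 (2.24), Gata2 (2.15), Gem (2.05), Cpne7 (1.98) and Septin1 (1.95). It was more negative for Bpgm (-2.34), Runx1t1 (-2.33), Cfap57 (-1.98), Cps1 (-1.92), Xpo7 (-1.76), Ttpa (-1.65), Abcb11 (-1.61) and Fam220a (-1.48).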

How the results depend on the processing

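Stage and sex markers overlap in carriers, signals near 3.74 are close to background, and 2 arrays a group limit the genotype tests. The carrier count of 5434 was 2144 with Y-linked signal as a covariate, 2138 without the 3 arrays with opposing sex markers, 1280 on the female-side arrays, and 3573 to 7873 when single arrays were left out. WT/GATA1s gave 6716 genes with array weights, 2067 without the 3 arrays and 1521 to 1753 when single arrays were left out. ERG/GATA1s gave 863, 300 and 1046 to 6535. Arrays without GATA1s gave 3071 to 4664 when single arrays were left out, with the lowest when, at E14.5, the ERG array labelled female was omitted. The GATA1s difference gave 398 genes with quantile normalization, 102 with the Y-linked covariate, 4 without the 3 arrays and 76 to 747 when single arrays were left out. The genotype difference gave 26 with no filter, 64 with quantile normalization, 26 with median centring, 4 with array weights, 82 with the Y-linked covariate, 2 without the 3 arrays and 1 to 50 when single arrays were left out.

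For 186 named genes the direction on the female-side arrays was set beside that in carriers. Some kept their direction there but not their call. Of the 160 called on either set of arrays 11 had the opposite sign there: Dmtn 0.065, Clec1b -0.205, Tac2 0.39, Parm1 -1.175, Septin1 -1.185, Bpgm 1.065, Runx1t1 1.115, Xist 0.605, Eif2s3y -0.87, Kdm5d -0.29 and Uty -0.715. Of the 26 called on neither 10 did, and so did Col1a1 (0.05) and Plac8 (-0.04), which were called in carriers and named after their values were seen. With the Y-linked covariate Eif2s3y was -0.001 and Uty -0.139. The female-side change is that of WT/GATA1s alone, so a difference between the genotypes can alter its sign. Parm1, Septin1, Bpgm and Runx1t1 are among the genotype differences named above. Beyond this, and these settings' own loss of arrays, the cause was not tested. The labels number no replicates. With labelled sex as a covariate, which sets arrays of one genotype and labelled sex side by side, 4974 genes were called in carriers.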
